A study of Mus musculus with 8 samples.

Results

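The interferon regulatory factor genes Irf1, Irf5, Irf7 and Irf8 were followed in mouse spleen CD8+ dendritic cells, which take up antigen and present it to T cells. They were taken by gene symbol from the array's annotation, which gave 5 probe sets for the 4 genes (2 of them for Irf7) among 12422 probe sets tested. In the order used below, the 4 groups were cells cultured for 4 hours with interferon gamma (IFN-γ, murine, 200 U/ml) or in medium alone, and for 16 hours with the same IFN-γ or in medium alone. Each group held 2 arrays, and all cells came from 60-day-old female DBA/2J mice that had received 10 µg of Flt3 ligand over 9 days to enlarge their dendritic cell pool, so the medium groups carry that treatment too. Total RNA was hybridised to Affymetrix MG-U74Av2 arrays, and values are the logarithm to base 2 (log2) of the deposited intensity of a probe set. The labels name no separate mice or cultures for the 2 arrays of a group, so the spread behind the p-values is that between arrays and may be technical. Having only 2 arrays a group limits the precision.

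Interferon regulatory factors are transcription factors that share a DNA-binding domain at the amino end and bind DNA elements built around repeats of GAAA. Irf1 is a classic early gene of IFN-γ, whose signal reaches many promoters at short elements called gamma-activated sites. Irf8 is made in blood cells and is needed in mice for the CD8+ dendritic cell to develop. The Irf7 protein drives type I interferon genes and the Irf5 protein inflammatory cytokine genes, both after phosphorylation downstream of Toll-like receptors. The Irf7 gene is itself induced by type I interferon.

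The promoters of the members differ in the letters of the gamma-activated site, and those of Irf1 and Irf8 are shown because these genes rose with IFN-γ. Both are the 250 bases before the annotated start in RefSeq's mouse reference (GRCm38.p6, a C57BL/6J genome and not DBA/2J), at chr11:53769764-53770013 for Irf1 and chr8:120736108-120736357 for Irf8, each on the + strand. Capitals mark every match to TTCNNNGAA, the gamma-activated site, which reads alike on both strands.
Irf1: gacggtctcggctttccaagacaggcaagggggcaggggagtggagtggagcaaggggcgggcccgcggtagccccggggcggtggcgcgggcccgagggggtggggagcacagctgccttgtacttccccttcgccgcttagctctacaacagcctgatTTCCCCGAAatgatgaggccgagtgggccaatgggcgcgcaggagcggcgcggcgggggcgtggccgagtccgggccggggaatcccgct
Irf8: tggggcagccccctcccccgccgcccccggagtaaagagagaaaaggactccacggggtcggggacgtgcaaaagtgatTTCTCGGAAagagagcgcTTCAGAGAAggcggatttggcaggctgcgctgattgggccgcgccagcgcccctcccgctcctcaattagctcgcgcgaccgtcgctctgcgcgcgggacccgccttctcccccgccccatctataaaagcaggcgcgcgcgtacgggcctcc

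The match in Irf1 begins 90 bases before the start, and those in Irf8 begin 171 and 153 bases before it. A second annotated start of Irf1 and of Irf8 had no match in its window, nor had the 1 window of Irf5 or of Irf7. Of all 32851 windows of this length in the same table, 7.02% held the motif. The interferon-stimulated response element, GAAA and GAAA 2 bases apart, was in 2.98% of all windows and the composite element, GGAA and GAAA 2 bases apart and bound by Irf4 or Irf8 together with PU.1, was in 2.3%. Both were searched on both strands, they can overlap each other, and neither was in a window of the 4 genes. Of the other family members searched, Irf3, Irf4 and Irf9 had no match to any of the 3 motifs, while the window of Irf2 matched each. A match is a description of these letters, and its use in these cells was not measured.

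The check of the cells came out as follows. Of 10 measured markers of the CD8+ dendritic cell, 8 or 9 were above the antisense control probe sets of the array, a measure of unspecific signal, in each group. Itgae was below that level in all 4 groups and Xcr1 in 3. All 6 measured B cell markers were above it in each group, and B cells also express Irf8 and Irf4. So were all 5 measured T cell markers and 2 of 3 measured markers of the plasmacytoid dendritic cell. On arrays of bulk RNA, fewer cells of a type and less RNA per cell cannot be told apart. The 5 probe sets of the 4 genes were above the antisense controls in each group.

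IFN-γ raised Irf1 and Irf8 and not detectably Irf5 or Irf7. Averaged over both times, Irf1 was higher by 0.90 on the log2 scale (SE 0.072, adjusted p = 0.000444), which is 1.86-fold. Irf8 was higher by 0.72 (SE 0.072, adjusted p = 0.00199), or 1.64-fold. Both differences come from limma, a linear model fitted to all 12422 probe sets with Benjamini-Hochberg adjustment and a threshold of 0.05, as do all adjusted p-values below. Of all probe sets, 0.314% were called higher in this comparison. Irf5 differed by 0.16 (95% interval -0.03 to 0.36, adjusted p = 0.9999) and the brighter probe set of Irf7 by 0.20 (95% interval -0.01 to 0.41, adjusted p = 0.9999). The calls of Irf1 and Irf8 held under all 14 alternatives run, the omission of each array included, with adjusted p up to 0.00683 for Irf1 and 0.0270 for Irf8.

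**Figure D1:**
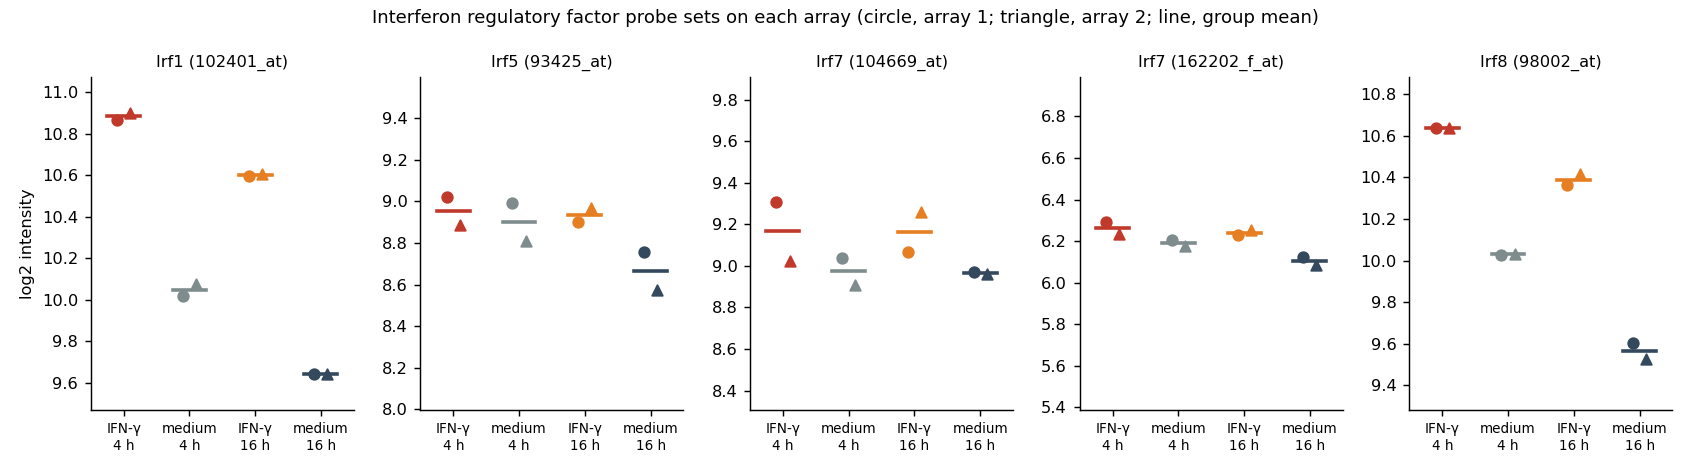
Log2 intensity of the 5 member probe sets (y axis, each panel spanning the same range of 1.6) on the arrays of the 4 groups (x axis), with circles for array 1, triangles for array 2 and a line for the group mean. For Irf1 and Irf8 the IFN-γ arrays lie above the medium arrays at both times and replicate arrays nearly coincide, while for Irf5 and the brighter Irf7 probe set replicate arrays lie up to 0.18 and 0.29 apart and the IFN-γ and medium arrays overlap at 4 hours.

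Irf1, which encodes the activator that gives the family its name, had the larger response of the 4 genes at each time. Its probe set 102401_at read 10.87 and 10.90 (log2 intensity) on the IFN-γ arrays at 4 hours, against 10.02 and 10.08 on the medium arrays. At 16 hours it read 10.60 and 10.60 with IFN-γ, against 9.64 and 9.64 in medium. The groups did not overlap at either time, and the 2 arrays of a group differed by at most 0.06.

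In linear intensity, Irf1 averaged 1889 with IFN-γ and 1059 in medium at 4 hours, and 1552 with IFN-γ and 799.7 in medium at 16 hours. The log2 difference was 0.84 at 4 hours (SE 0.10) with an adjusted p of 0.0123, and 0.96 at 16 hours (SE 0.10) with an adjusted p of 0.0075. By size of difference, Irf1 stood at place 44 of 12422 at 4 hours and at place 21 at 16 hours. The 4-hour call was lost when any of the 4 arrays compared was left out, with adjusted p between 0.166 and 0.217. The 16-hour call was lost without array 2 of medium at 16 hours (adjusted p = 0.0660) and in a fit of only the 4 arrays compared (adjusted p = 0.153).

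Irf8, the factor on which this dendritic cell lineage depends, followed the same course at a smaller size. Its probe set 98002_at read 10.64 and 10.64 with IFN-γ at 4 hours, against 10.03 and 10.03 in medium. At 16 hours it read 10.36 and 10.41 with IFN-γ, against 9.60 and 9.53 in medium. The arrays of the groups did not overlap at either time.

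Irf8 averaged a linear intensity of 1592 with IFN-γ and 1045 in medium at 4 hours, and of 1341 with IFN-γ and 757.2 in medium at 16 hours. The difference of 0.61 at 4 hours (SE 0.10), place 90 by size, missed the threshold at an adjusted p of 0.0612. With the replicate number as a block, it passed (adjusted p = 0.00892). No label names such a pairing, and for Irf8 itself array 1 minus array 2 was of mixed sign, between -0.051 and 0.075. The difference of 0.82 at 16 hours (SE 0.10, adjusted p = 0.0158) passed, at place 26 by size. That call was lost in a fit of only the 4 arrays compared (adjusted p = 0.275) and under 6 of the 8 omissions of an array, all except those of an IFN-γ array at 16 hours, with adjusted p between 0.0591 and 0.135.

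Among the members, 1 of 4 genes was thus called higher at 4 hours, Irf1, where 0.258% of all probe sets were called higher. At 16 hours 2 of 4 were, Irf1 and Irf8, where 0.161% were. With the replicate block, 2 of 4 were called at 4 hours, against 1.09% of all probe sets, and 2 of 4 at 16 hours, against 0.411%. The median difference of the 4 genes, each by its brightest probe set, was 0.40 at 4 hours and 0.55 at 16 hours, beside -0.01 and 0.00 over all 8251 genes. The 4 genes were chosen with earlier results of these data known, so these counts and medians describe them and are no test. For the 3 other measured factors of the family the medians were 0.05 and 0.06.

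Irf7, the factor of type I interferon induction, was measured by a pair of probe sets and showed no call. The brighter one, 104669_at, read 9.31 and 9.02 with IFN-γ at 4 hours, against 9.04 and 8.91 in medium, so that 1 array of IFN-γ lay within the range of medium. The 16-hour values were 9.06 and 9.26 with IFN-γ, against 8.97 and 8.96 in medium, with no overlap. The array of the higher value was array 1 at 4 hours and array 2 at 16 hours. The dimmer probe set 162202_f_at, whose suffix marks a design shared with related sequences, read 6.29 and 6.23 with IFN-γ against 6.20 and 6.18 in medium at 4 hours. At 16 hours it read 6.23 and 6.25 with IFN-γ, against 6.13 and 6.09 in medium.

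The differences of Irf7 were 0.19 at 4 hours (95% interval -0.11 to 0.49) and 0.20 at 16 hours (-0.10 to 0.50) on the brighter probe set, and 0.07 and 0.14 on the dimmer. Each had an adjusted p of 0.9999 at 4 hours and 0.9998 at 16 hours, and the direction was upward on both probe sets at both times. The 95% intervals of the brighter probe set end below those of Irf1 at both times, whose lower ends were 0.61 and 0.73. The difference between genes was not tested, and the intervals are not adjusted for the number of probe sets.

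Irf5, an activator of inflammatory cytokine genes, read 9.02 and 8.89 with IFN-γ at 4 hours on its probe set 93425_at, against 8.99 and 8.81 in medium. The 16-hour values were 8.90 and 8.97 with IFN-γ, against 8.76 and 8.57 in medium. The groups overlapped at 4 hours and not at 16 hours. The difference was 0.05 at 4 hours (95% interval -0.22 to 0.33) and 0.27 at 16 hours (-0.00 to 0.54), with adjusted p-values of 0.9999 and 0.9998. At 16 hours both IFN-γ arrays lay above both medium arrays for all 5 probe sets of the 4 genes, as they did for 9.1% of all probe sets. At 4 hours that held for Irf1, Irf8 and the dimmer probe set of Irf7, and for 15.4% of all probe sets.

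**Figure D2:**
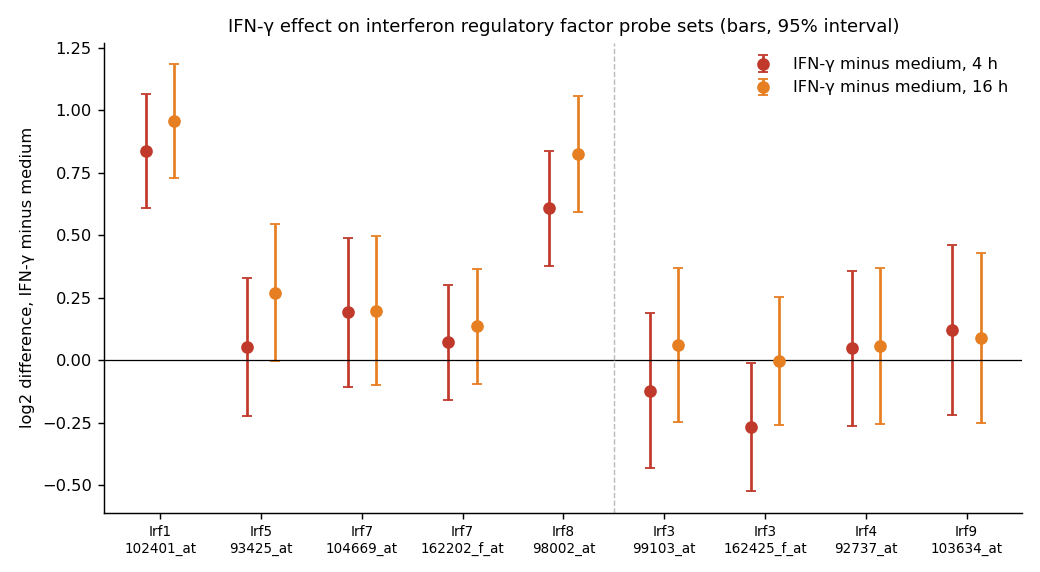
Log2 difference, IFN-γ minus medium (y axis), for each probe set of an interferon regulatory factor (x axis), at 4 and at 16 hours, with bars for the unadjusted 95% interval. The probe sets of Irf1 and Irf8, between 0.61 and 0.96, are the ones whose intervals lie wholly above 0 at both times; the dashed line parts the 4 member genes from the other measured factors, and 162425_f_at lies below the antisense controls.

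The other measured factors of the family, Irf3, Irf4 and Irf9, did not pass at either time. Irf9, the DNA-binding subunit of the complex that carries the type I interferon signal, differed by 0.12 at 4 hours and 0.09 at 16 hours. It read 8.51 and 8.47 with IFN-γ against 8.29 and 8.45 in medium at 4 hours, and 8.30 and 8.74 with IFN-γ against 8.36 and 8.50 in medium at 16 hours. Irf4, the relative of Irf8 that marks other dendritic cells and activated B cells, differed by 0.05 and 0.06. Irf3, which is present before stimulation and drives the first interferon beta transcripts, differed by -0.12 and 0.06 on its brighter probe set, and its dimmer one was below the antisense controls. The expression of Irf2 was not analysed here. All 3 genes had adjusted p-values of 0.9999 at 4 hours and 0.9998 at 16 hours.

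Quality measures moved with the groups at 4 hours. For Actb the signal at the 3′ end over that at the 5′ end was 1.47 and 1.65 on the IFN-γ arrays, against 2.04 and 2.20 on the medium arrays, and that of Gapdh was 0.876 and 0.918, against 1.14 and 1.31. At 16 hours the Actb ratio was 1.68 and 1.66 with IFN-γ, against 1.63 and 1.57 in medium, and the Gapdh ratio was 0.828 and 0.906, against 0.885 and 0.827. The summed intensity of 12 macrophage markers, of which Mrc1 and Mertk were below the antisense controls in each group, was 1356 to 1364 with IFN-γ and 1798 to 1844 in medium at 4 hours. At 16 hours it was 3389 to 4229 with IFN-γ and 4658 to 5481 in medium. The sum of 6 B cell markers was 2181 to 2279 with IFN-γ against 2506 to 2863 in medium at 4 hours, and 3240 to 3439 against 2999.8 to 3218 at 16 hours. The sum of the 10 CD8+ dendritic cell markers was 7863 to 8026 with IFN-γ against 8600.0 to 8695 in medium at 4 hours, and 7269 to 7990.2 against 8051 to 8492 at 16 hours. Neutrophil markers, all 6 above the controls in each group, summed to 3567 to 3817 with IFN-γ against 4093 to 4215 in medium at 4 hours, and to 3260.4 to 4035 against 3627 to 3817 at 16 hours. For 4 measured NK cell markers, of which Ncr1 was below the controls in each group, the sum was 449.7 to 453 with IFN-γ against 369.9 to 379.9 in medium at 4 hours, and 419 to 506 against 414 to 496 at 16 hours. Plasmacytoid dendritic cell markers, 3 measured, summed to 432 to 455 with IFN-γ against 497 to 532 in medium at 4 hours. At 16 hours they summed to 475 to 523 against 526 to 562. The sum of 5 T cell markers was 1412 to 1477 with IFN-γ against 1528 to 1620 in medium at 4 hours. At 16 hours it was 1426 to 1599.5 against 1408 to 1566. The part of the quality measures and marker sums in the result was not tested.

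The response of Irf1 and Irf8 was of like size at both times, as far as the test could see. The effect of IFN-γ at 16 hours minus that at 4 hours was 0.12 for Irf1 (95% interval -0.20 to 0.44) and 0.22 for Irf8 (-0.11 to 0.54). It was 0.22 for Irf5 (-0.17 to 0.61) and 0.01 for the brighter probe set of Irf7 (-0.42 to 0.43). The adjusted p was 0.9998 for each. Limma called 0 of 12422 probe sets in this comparison, while 353 had an unadjusted p below 0.05. With the block, limma called 0.242%, none of them a member. The intervals leave room for a change of the effect by as much as 0.44 for Irf1 and 0.54 for Irf8.

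**Figure D3:**
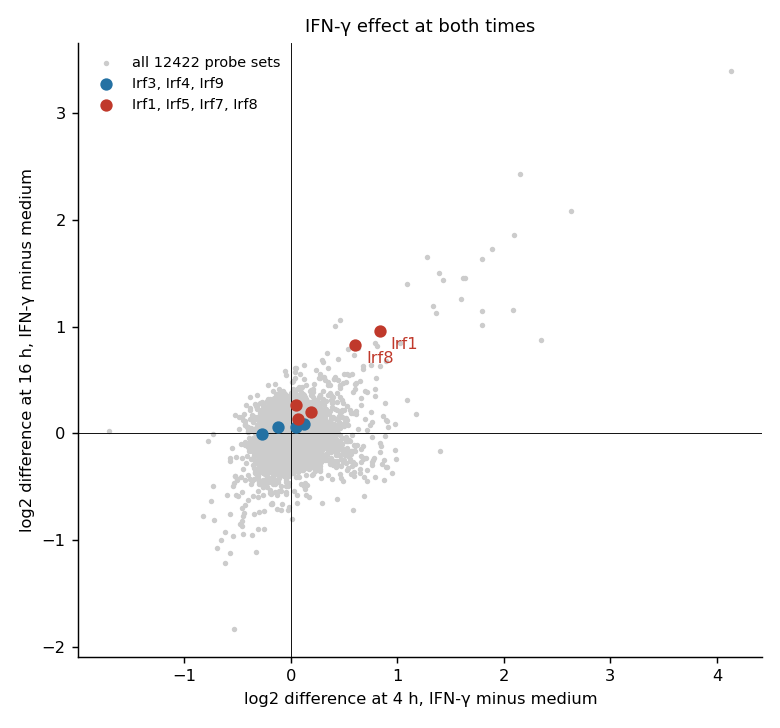
Log2 difference between IFN-γ and medium at 4 hours (x axis) and at 16 hours (y axis) for all 12422 probe sets in grey, the 5 probe sets of Irf1, Irf5, Irf7 and Irf8 in red and those of Irf3, Irf4 and Irf9 in blue. Irf1 (0.84 and 0.96) and Irf8 (0.61 and 0.82) stand outside the main cloud at both times, and the other factors lie within it.

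In medium, Irf8 was lower at 16 than at 4 hours by limma, though the call did not hold under each alternative. From the values above, Irf8 was 0.47 lower at 16 than at 4 hours in medium (SE 0.10, adjusted p = 0.0385), 0.724 of its level at 4 hours. Irf1 differed by -0.40 (SE 0.10, adjusted p = 0.0603) and passed with the replicate block (adjusted p = 0.0130). Under quantile normalization Irf1 differed by -0.24 (adjusted p = 0.253), and with an array left out its difference ran from -0.43 to -0.37. So 1 of the 4 genes fell by limma, where 2.57% of all probe sets fell, and 2 with the block, where 8.09% did. Irf5 differed by -0.24 (adjusted p = 0.386) and Irf7 by -0.01 on its brighter probe set (adjusted p = 0.979). The 3′ over 5′ ratio of Actb also differed in medium, with 2.04 and 2.20 at 4 hours against 1.63 and 1.57 at 16 hours. That of Gapdh was 1.14 and 1.31 against 0.885 and 0.827. The part of these ratios in the lower levels was not tested. The call of Irf8 was lost under quantile normalization (-0.33, adjusted p = 0.127) and under 6 of 8 omissions of an array, all except those of an IFN-γ array at 16 hours, with adjusted p between 0.0902 and 0.266.

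With IFN-γ present, the 16-hour level was 0.28 lower than the 4-hour level for Irf1 (SE 0.10, adjusted p = 0.227) and 0.25 lower for Irf8 (SE 0.10, adjusted p = 0.312). None of the 4 genes passed, while 1.3% of all probe sets fell. Irf5 and Irf7 differed by -0.02 and by less than 0.01. These comparisons share arrays with those of IFN-γ against medium. Irf4 read 8.00 and 8.17 in medium at 16 hours, against 8.42 and 8.55 at 4 hours, and 8.00 and 8.27 with IFN-γ at 16 hours, against 8.43 and 8.65 at 4 hours. Its differences of -0.41 and -0.40 missed the threshold (adjusted p = 0.160 and 0.211) and passed with the block (adjusted p = 0.0147 and 0.0194).

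The order of the 4 groups was the same for Irf1 and Irf8. From high to low it ran from IFN-γ at 4 hours through IFN-γ at 16 hours and medium at 4 hours to medium at 16 hours. The arrays of no pair of neighbouring groups overlapped for either gene, while both 16-hour arrays lay below both 4-hour arrays for 17.7% of all probe sets with IFN-γ and 20.8% in medium. The step between the IFN-γ groups passed for neither gene. The middle step, in which treatment and time both change, was not tested. The share of all probe sets without overlap at that step, or with this whole order, was not counted. With culture in medium, 11 of 12 macrophage markers rose and Spic fell between 4 and 16 hours, where 1.71% of all probe sets rose, with the summed intensities given above. Of 6 B cell markers, 1 rose in medium and 2 with IFN-γ, or 3 and 6 with the block, with medians of 0.37 and 0.64. Of all 12422 probe sets, 531 were called in either direction in medium and 263 with IFN-γ. With the block these numbers were 1567 and 1259. The part of these marker changes in the lower 16-hour levels of Irf1 and Irf8 was not tested.

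The genes nearest to Irf1 and Irf8 in their course over the arrays included each other. Likeness was measured as the root mean square difference over the 8 arrays between log2 values centred on each probe set's mean, among 4796 other genes above the antisense controls, so that a small value means a like course and a like size. For Irf1 the nearest gene was Irf8, at 0.097. After it came Samhd1, which encodes an enzyme that degrades DNA building blocks (0.137), Wars, the tryptophanyl-tRNA synthetase (0.139), Tap1, which carries peptides to MHC class I molecules (0.148), and Nampt, an enzyme of NAD synthesis (0.159). For Irf8 the nearest gene was Irf1, and after it came Tap1 (0.107), Wars (0.110), Pkib, an inhibitor of protein kinase A (0.142), and Noc4l (0.154).

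The other members lay further off. Irf5 was at a distance of 0.394 and Irf7 at 0.404 from Irf1, and at 0.307 and 0.330 from Irf8. Among the 4796 other genes these distances held places 153 and 204 from Irf1, and 114 and 231 from Irf8. These distances come from the same arrays as the comparisons above and carry no test. The brightest probe set of Wars, used here, differed by 0.75 at 4 hours, and its further probe sets by 1.60 and 0.55. A further probe set of Tap1 was below the antisense controls in each group.

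**Figure D4:**
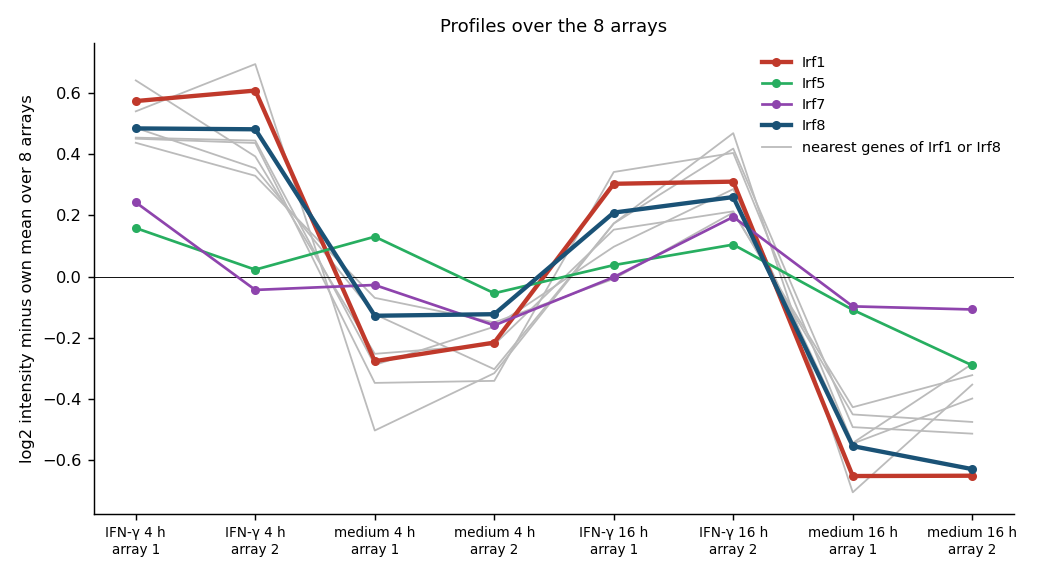
Log2 intensity minus the gene's own mean over 8 arrays (y axis) on each array (x axis) for the 4 members and, in grey, the nearest genes of Irf1 or Irf8. Irf1 and Irf8 run close together, 0.097 apart in root mean square, and vary more than Irf5 and Irf7.

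Genes that act before the factors mostly did not pass. Of 11 measured genes of the IFN-γ receptor and its kinase signalling, 1 rose at each time, Socs1, an inhibitor of the receptor's kinases, by 1.39 at 4 hours (adjusted p = 0.0141) and 1.51 at 16 hours (adjusted p = 0.0137). The median of the list was 0.09 at each time. Of all probe sets, 0.258% were called higher at 4 hours and 0.161% at 16 hours. The receptor genes Ifngr1 and Ifngr2 differed by 0.09 and -0.01 at 4 hours, and the kinase genes Jak1 and Jak2 by 0.03 and -0.00.

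None of 10 measured sensors and kinases upstream of Irf3, Irf5 and Irf7 passed at either time, with medians of 0.08 and 0.04. Nor did any of 4 measured genes of the type I interferon receptor and its signalling complex, whose 4-hour differences lay between -0.26 for Ifnar2, a receptor chain, and 0.36 for Tyk2, its kinase. Among the sensors, Ifih1, a sensor of double-stranded RNA, differed by 0.42 at 4 hours and Myd88, the adaptor of most Toll-like receptors, by 0.23. None of 8 measured type I interferon genes passed, and their differences at 4 hours lay between -0.04 and 0.06. Of these 8, 3 were above the antisense controls in all groups, and Ifnb1, the interferon beta gene, was below them in each, so whether it changed cannot be read.

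Genes reported as targets of the factors were described by counts, and the lists share members such as Cxcl10. Beside these counts, limma called 0.258% of all probe sets higher at 4 hours and 0.161% at 16 hours. With the block it called 1.09% and 0.411% higher. Of 17 measured targets of Irf1, 3 rose at 4 hours and none fell, with a median of 0.28. They were Cxcl10, a T cell chemokine above the antisense controls in 2 groups (2.35, adjusted p = 0.000278), Socs1 and Gbp2, an interferon-inducible GTPase (1.28, adjusted p = 0.00502). At 16 hours 4 rose, with a median of 0.24: Gbp2 (1.65, adjusted p = 0.00152), Socs1, Il18bp, an inhibitor of interleukin 18 (1.01, adjusted p = 0.0305), and Tap1 (0.80, adjusted p = 0.0499). With the block 4 rose at 4 hours, Tap1 being added (0.63, adjusted p = 0.0266), and 5 at 16 hours, Cxcl10 being added (0.88, adjusted p = 0.0049). The MHC class I light chain gene B2m differed by 0.00 and -0.07.

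Of 16 measured targets of Irf8, Irgm1, an immunity-related GTPase, rose at 4 hours (1.80, adjusted p = 0.00496), and none passed at 16 hours. The medians were 0.13 and 0.02. With the block 5 and 3 rose, against 1.09% and 0.411% of all probe sets called higher. Without it these shares were 0.258% and 0.161%. Under the block the effect on Cybb, a subunit of the phagocyte oxidase, was lower at 16 than at 4 hours (-1.04, adjusted p = 0.0477, against 0.813 without the block). Ifi47, a GTPase of the same kind, had a 4-hour difference of 1.36, with an adjusted p of 0.0704 by limma and 0.000894 under the block. For Pml, which organises nuclear bodies, it was 0.68, with an adjusted p of 0.0765 by limma and 0.0127 under the block. Il12b, the interleukin 12 subunit that Irf8 activates in mouse macrophages, was below the antisense controls in all groups.

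Of 13 measured targets of Irf7 and of the type I interferon complex, Cxcl10 alone was called at 4 hours, but all 13 differences were positive, with a median of 0.61, beside -0.01 over all genes. With the block 7 rose at 4 hours. Of all probe sets, 0.258% were called higher at 4 hours by limma and 1.09% with the block. Ifit2 differed by 1.09, Isg15 by 0.66 and Ifit1 by 0.70 at that time. At 16 hours none passed by limma and 1 with the block, where 0.411% of all probe sets were called higher. The median was 0.20. The difference between the times had a median of -0.39 over the list, and none of its genes was called in it by limma. With the block 1 was, Cxcl10 (-1.47, adjusted p = 0.00948). Of 9 measured targets of Irf5, Irf7 itself among them, Cxcl10 rose at 4 hours and none passed at 16 hours, with medians of 0.03 and 0.06. With the block Cxcl10 rose at 16 hours too. The cytokine genes Tnf and Il6 differed by 0.28 and 0.32 at 4 hours, and Il6 was above the antisense controls in 1 group only.

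**Figure D5:**
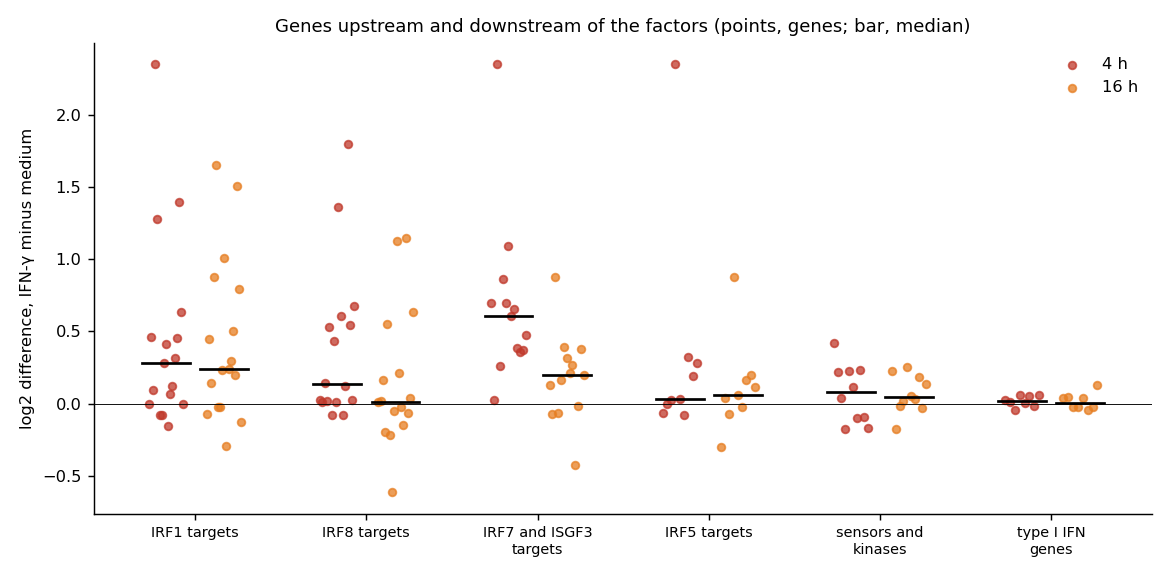
Log2 difference, IFN-γ minus medium (y axis), of each measured gene (points) in 6 lists around the factors (x axis), at 4 and 16 hours, with a bar at the median. At 4 hours the targets of Irf7 and of the type I interferon complex have the highest median (0.61), with 1 gene called by limma, and the type I interferon genes lie between -0.04 and 0.06.

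Transcripts of proteins that work with the factors were measured too. At 4 hours 0.258% of all probe sets were called higher by limma, and 1.09% with the block. Of 10 measured DNA-binding partners of Irf4 and Irf8, 1 rose at 4 hours, Ikzf1, a zinc finger factor above the antisense controls in 3 groups, by 0.98 on its brighter probe set (adjusted p = 0.00496). Its dimmer one was below the antisense controls in each group. With the block 3 rose, the others being Jun (0.46, adjusted p = 0.0492) and Fli1 (0.52, adjusted p = 0.0317). In medium alone the brighter probe set of Ikzf1 rose by 1.28 between 4 and 16 hours (adjusted p = 0.000465). None passed at 16 hours. Spi1, which encodes PU.1, differed by -0.28 and -0.01, and Batf3, a partner of Irf8 in CD8+ dendritic cells, by 0.03 and 0.01. Of 8 measured repressors and modifiers, 1 rose at 4 hours, Trim21, a ubiquitin ligase reported to act on Irf3, Irf5, Irf7 and Irf8, by 0.79 (adjusted p = 0.0188). Its dimmer probe set differed by 0.31, and at 16 hours the brighter one differed by 0.41 (adjusted p = 0.452).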

How the data were processed

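The authors deposited 1 intensity value per probe set and array. RMA is the tool named per the submitters' processing notes; its version is not given in the sources used here. The range of the deposited intensity shows a linear scale, so log2 was taken with no pseudocount and no further normalization. The array controls, 66 of 12488 probe sets, did not enter the fit, among them 15 antisense controls used as the level of unspecific signal. Symbols came from the platform annotation, matched by gene number to RefSeq: 10833 probe sets had 1 symbol, 396 several and 1193 none. A gene in a list is represented by its brightest probe set.

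Group means were fitted over all 8 arrays by lmFit, contrasts.fit and eBayes (limma 3.58.1, R 4.3.3, two-sided), which was tested on simulated data, and adjusted over 12422 probe sets. Between groups, differences between array 1 and array 2 correlated at 0.367 to 0.740 across probe sets in all 6 pairs. Arrays of the same number thus shared part of their deviation, though no label pairs them and the source of this was not tested. The fit with the number as a block is given where it changes a call described here. Every probe set of the 4 genes is named. In other lists at most 4 genes with the smallest p were to be named per comparison, and the further ones were chosen after their values were seen. The members and lists were chosen with earlier results of these data known. Alternatives were quantile normalization, median centring, a robust trended prior, a fit without the 40% dimmest probe sets, the replicate block, a fit of only those arrays that enter a comparison, omission of each array, and 1 mean value per gene.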

Additional observations from a re-analysis of the deposited data

How the results depend on the processing

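The calls of Irf1 and Irf8 over both times held under all 14 alternatives, and 0 members were called for the difference of effects or for time with IFN-γ under any. The count of member genes called was 1 at 4 hours, and 2 with the replicate block, quantile normalization, a trended prior, without dim probe sets, with only the arrays compared or with 1 mean value per gene; leaving out an array gave 0 to 2. At 16 hours it was 2, 0 with only the arrays compared, and 0 to 2 with an array left out. For time in medium it was 1, 2 with the block, median centring, a trended prior, without dim probe sets or with 1 mean value per gene, 0 with quantile normalization, and 0 to 2 with an array left out.

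Over all probe sets, the replicate block called 157 at 4 hours, 105 at 16 hours, 30 for the difference of effects, 1567 for time in medium, 1259 for time with IFN-γ and 190 over both times, against 32, 32, 0, 531, 263 and 59 without it. Only the arrays compared gave 93, 7 and 120 at 4 hours, at 16 hours and for time with IFN-γ, and 1 mean value per gene gave 20 at 4 hours. With an array left out the counts ran from 8 to 67, 10 to 38, 73 to 923, 27 to 708 and 24 to 81 at 4 hours, at 16 hours, for time in medium, for time with IFN-γ and over both times.

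Directions turned only for differences far from the threshold. Quantile normalization gave -0.041 for the difference of effects of Irf7 on 104669_at, 0.12 for its time in medium, and 0.075 and 0.064 for time with IFN-γ of Irf7 and Irf5. With an array left out, Irf5 ran from -0.040 to 0.14 at 4 hours and from -0.087 to 0.048 for time with IFN-γ. Irf7 on 104669_at ran from -0.14 to 0.15 for the difference of effects, from -0.075 to 0.057 for time in medium and from -0.15 to 0.14 for time with IFN-γ, and on 162202_f_at from -0.051 to 0.0071 for the last. The cause of these changes was not tested. A group reduced to 1 array was taken to vary as the remaining groups do. Replicate arrays differed, as an SD across all probe sets, by 0.176 with IFN-γ and 0.170 in medium at 4 hours, and 0.311 and 0.241 at 16 hours.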
